A study of Mus musculus with 12 samples.

Results

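Libraries of wild-type mouse embryonic stem (ES) cells were set against each other, 1 of short RNA and 1 of long RNA, to find loci whose short RNA was out of line with their long RNA. A locus entered when its row was marked OK in both deposited tables and carried the same gene name in both. Of 36883 rows, 2597 were OK in the short RNA table, 16160 in the long RNA table and 2508 in both. Another 65 rows were left out for a different name, and 2443 rows remained. Both tables were normalized apart, so FPKM levels were not compared between them. Only microRNA rows were also described by short fragments per long fragment, from estimated fragments. Each row received a percentile among the 2443 in each library, and the difference is the short RNA percentile minus the long RNA percentile. A row was called far above when its short RNA percentile was at least 50 points higher, and far below when it was at least 50 points lower.

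The study maps RNA and methylation in ES cells that are wild type or deficient in Drosha or Dnmt1. The wild-type cells carry no added agent in the labels and were grown with serum and leukemia inhibitory factor, and the labels of the RNA samples give no strain. Short and long RNA were split on a column kit from RNA extracted with Trizol, and all RNA libraries were made with a kit for small RNA. The long RNA table is taken to be the sample titled total RNA, since the tables of mRNA and short RNA match the other titles. Drosha-deficient cells, with 1 short and 1 long library of their own, served to repeat the same comparison. The RNA labels do not say how those cells were derived or whether they are 1 clone.

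A microRNA starts within a long primary transcript that folds into a hairpin. Drosha with its partner Dgcr8 cuts the hairpin out in the nucleus, Dicer cuts off its loop, and a short mature strand enters an Argonaute protein. Many hairpins lie in introns of protein-coding genes, called hosts, and small nucleolar RNAs (snoRNAs), which guide chemical changes of other RNAs, also lie in introns and are freed by other enzymes. A host row in a gene table can thus collect reads of a small RNA that lies within it.

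Sequences are mature microRNAs from RefSeq (GRCm38.p6), written 5′ to 3′ with the seed, bases 2 to 8, in capitals. The seed is the stretch that pairs with target transcripts. Of the 104 microRNA rows, 100 matched a mature sequence and 94 a hairpin, and for 68 the hairpin had exactly the locus of the file. The rows do not separate both arms of a hairpin. The first set holds the miR-290 cluster of chromosome 7 and its relatives of the miR-302 cluster, shown because hairpins with the same seed took different places in this comparison.
miR-290a-3p (Mir290a, chromosome 7, 3218674 to 3218697, plus strand): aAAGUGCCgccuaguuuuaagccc
miR-291a-3p (Mir291a, chromosome 7, 3218968 to 3218989, plus strand): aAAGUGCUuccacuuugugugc
miR-291b-3p (Mir291b, chromosome 7, 3219529 to 3219550, plus strand): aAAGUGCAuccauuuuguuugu
miR-292a-5p (Mir292, chromosome 7, 3219200 to 3219221, plus strand): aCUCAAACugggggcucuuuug
miR-293-5p (Mir293, chromosome 7, 3220356 to 3220377, plus strand): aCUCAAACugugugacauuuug
miR-293-3p (Mir293, chromosome 7, 3220390 to 3220411, plus strand): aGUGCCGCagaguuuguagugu
miR-294-3p (Mir294, chromosome 7, 3220691 to 3220712, plus strand): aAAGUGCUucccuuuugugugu
miR-295-3p (Mir295, chromosome 7, 3220815 to 3220837, plus strand): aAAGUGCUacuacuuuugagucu
miR-302b-3p (Mir302b, chromosome 3, 127545275 to 127545297, plus strand): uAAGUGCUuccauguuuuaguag
miR-302d-3p (Mir302d, chromosome 3, 127545665 to 127545687, plus strand): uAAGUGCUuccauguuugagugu
The rows Mir291a, Mir294, Mir295, Mir302b and Mir302d have a mature arm with the seed AAGUGCU. Of these 5 rows, 2 were far above, both of the miR-302 cluster. Mir290a, Mir292 and Mir293 share another seed, CUCAAAC, on their 5p arms, and none of these 3 was far above.

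The next set holds abundant microRNAs outside that cluster, and miR-7b, a relative of miR-7a with the largest difference of all rows.
miR-148a-3p (Mir148a, chromosome 6, 51269829 to 51269850, minus strand): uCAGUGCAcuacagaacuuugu
miR-7a-5p (Mir7-2, chromosome 7, 78888295 to 78888317, plus strand): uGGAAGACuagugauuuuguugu
miR-7b-5p (Mir7b, chromosome 17, 56243017 to 56243040, plus strand): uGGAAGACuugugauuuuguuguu
miR-379-5p (Mir379, chromosome 12, 109709065 to 109709085, plus strand): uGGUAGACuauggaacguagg
miR-183-5p (Mir183, chromosome 6, 30169711 to 30169732, minus strand): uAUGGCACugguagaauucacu
miR-127-3p (Mir127, chromosome 12, 109592888 to 109592909, plus strand): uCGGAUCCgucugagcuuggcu
The third set holds 3 annotated microRNAs with few short fragments per long fragment.
miR-484 (Mir484, chromosome 16, 14159630 to 14159651, plus strand): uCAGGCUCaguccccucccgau
miR-3968 (Mir3968, chromosome 11, 115447969 to 115447989, minus strand): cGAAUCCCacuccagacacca
miR-6236 (Mir6236, chromosome 9, 110281353 to 110281371, plus strand): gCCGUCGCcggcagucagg
The last set holds microRNAs that have no row here and lie inside host rows that were far above.
miR-188-5p (Mir188, chromosome X, 7248031 to 7248051, minus strand): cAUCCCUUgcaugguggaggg
miR-362-5p (Mir362, chromosome X, 7242019 to 7242042, minus strand): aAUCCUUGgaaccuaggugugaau
miR-532-3p (Mir532, chromosome X, 7248419 to 7248440, minus strand): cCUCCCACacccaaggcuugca
miR-21a-5p (Mir21a, chromosome 11, 86584120 to 86584141, minus strand): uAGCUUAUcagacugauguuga
miR-128-3p (Mir128-1, chromosome 1, 128202404 to 128202424, plus strand): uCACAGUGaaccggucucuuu
miR-361-5p (Mir361, chromosome X, 113074867 to 113074888, minus strand): uUAUCAGAaucuccagggguac

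The fragments behind the values were estimated from the steps between low FPKM values (fragments corrected for transcript length and sequencing depth). The wild-type short library held about 2710000 fragments and the long library about 19200000. On these steps 132 of 132 short values and 712 of 713 long values under 30 fragments were whole within 0.05. The steps were fitted to these same values, so that share is no independent check of the estimates. On 1 kb, 1 fragment was worth 0.378 FPKM in short RNA and 0.0546 FPKM in long RNA. On an 80-base hairpin it was worth 6.53 and 1.51 FPKM. The median row stood at 5.12 FPKM in short RNA and 43.3 FPKM in long RNA. A single fragment on an 80-base hairpin therefore ranked above 62.01% of rows in short RNA and above 2.29% of rows in long RNA. Each genotype has 1 library of each kind, so no difference has a replicate check and no test was made. The ES cell markers found in the long RNA table ran from 63.3 to 297 FPKM in 6 rows. The 10 fibroblast markers summed to 96.5 FPKM and the 11 trophoblast and endoderm markers to 195 FPKM, against 906 FPKM for the ES cell markers, and their part in the differences was not tested.

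Short and long RNA ranked the 2443 loci only loosely alike. Spearman's rho across rows was 0.468, where rows are loci of the same 2 libraries and not replicates. Within 10 points of each other lay 849 rows (34.8%). In all, 190 rows (7.78%) were far above and 33 rows (1.35%) far below. The 6 rows just inside the upper threshold differed by 50.06 to 52.4 points and the 6 just outside by 48.5 to 49.9 points. At the lower threshold the 6 just inside ran from -52.8 to -50.5 points and the 6 just outside from -49.9 to -49.04 points. A far-above call is open only to the 1222 rows with a long percentile of at most 50. The 244 rows with a long percentile of at least 90 had short percentiles from 36.6 to 99.98 with a median of 86.9. The 244 rows with a long percentile of at most 10 had short percentiles from 0.696 to 99.2 with a median of 41.8, and 107 of them were far above. So the loci with most long RNA all had short RNA in the upper or middle ranks, while those with least long RNA spread over the whole short RNA ranking. When the rows were ranked among all OK rows of each table instead, their median long percentile was 91.0 and their median short percentile 48.6. In that ranking 50 rows were far above and 851 far below, so both counts hold only for ranks among the shared rows.

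**Figure D1:**
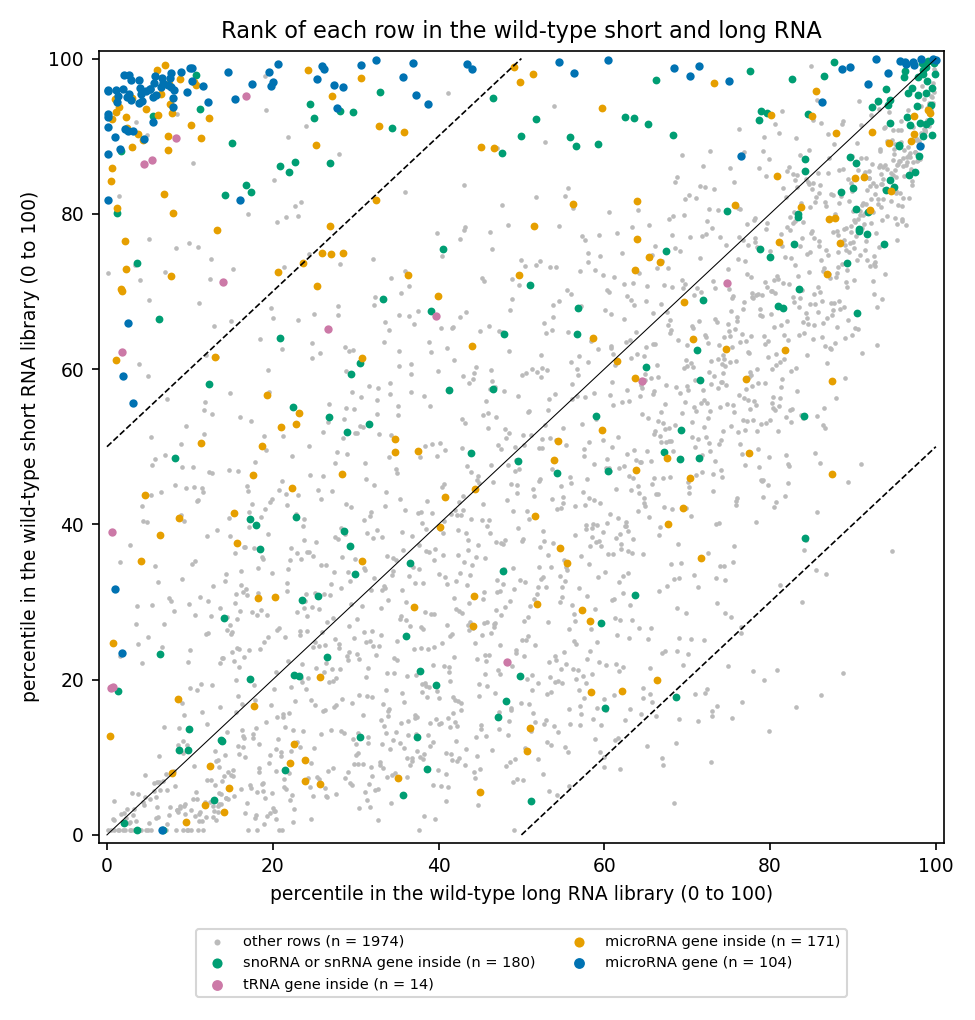
Percentile of each of the 2443 rows in the wild-type short RNA library (vertical axis) and in the wild-type long RNA library (horizontal axis), coloured by the small RNA genes they are or hold. The solid line marks equal ranks and the dashed lines a difference of 50 points; most microRNA rows lie in the upper left corner, and 33 rows lie below the lower dashed line.

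MicroRNA genes made up the largest group far above. Of 353 rows named for a microRNA, 104 joined, and a row scarce in long RNA may have entered through its short RNA. Of these 104 rows, 78 were far above and none far below, against 7.78% far above over all rows. With ranks among all OK rows, 30 microRNA rows were far above. Their median difference was 83.0 points, with a median percentile of 96.4 in short RNA and 8.56 in long RNA, where all rows had a median difference of -5.94 points. Their median level was 1478 FPKM in short RNA and 7.68 FPKM in long RNA. Of the 244 rows with a short percentile of at least 90, 90 were microRNA genes, and their long percentiles ran from 0.184 to 99.98. MicroRNA rows held 83.2% of the summed FPKM of the joined rows in short RNA and 14.3% in long RNA.

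The largest difference was that of Mir7b, a hairpin on chromosome 17 (56242988 to 56243098, mm10/GRCm38). It had 1252 FPKM in short RNA and was listed at 0 in long RNA, a difference of 95.8 points. Mir136 of the Dlk1-Dio3 region followed with 5128 FPKM in short and 1.39 FPKM in long RNA, although its row in the files spans a wider locus than the hairpin. The 4 joined rows of the miR-302 cluster, which marks pluripotent and early epiblast cells, were all far above. Mir302d had 17206 FPKM in short and 8.92 FPKM in long RNA, Mir302a had 8260 and 8.05 FPKM, and Mir302b had 7328 and 6.88 FPKM. Mir367 of the same cluster had 28.7 FPKM in short RNA and was listed at 0 in long RNA. These 4 rows share 1 wide locus on chromosome 3, 127536954 to 127553348. Both let-7 rows were far above, Mirlet7i with 685 and 4.63 FPKM and Mirlet7a-1 with 14.5 and 0 FPKM. The call of Mirlet7a-1 rests on an estimated 3 short and 0 long fragments, and that of Mir367 on 4 and 0. Among 27 rows of the Dlk1-Dio3 region, an imprinted cluster on chromosome 12, 22 were far above (81.5%, near the 75% of all microRNA rows). The list median was 84.8 points. Of 5 rows of the miR-17 to 92 cluster and its paralogs, 3 were far above (60%, against 75% of all microRNA rows). Mir18b (3693 and 6.77 FPKM), Mir19b-2 (67.3 and 0 FPKM) and Mir20b (30105 and 36.5 FPKM) were the 3, whereas Mir363 and Mir92-2 differed by 30.4 and 9.25 points.

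The miR-290 cluster, the most abundant microRNA group of mouse ES cells, stood high in both libraries. Its 6 listed rows had differences of 0.246 to 4.01 points with a median of 3.09 points. Mir293 had 1136290 FPKM in short RNA, the highest of all rows, and 582 FPKM in long RNA. Mir292 had 556982 FPKM in short and 4320 FPKM in long RNA. Both ranked within the top 2 percent of each library, where the percentile difference has no room to show an excess. Mir291b, which lies in the same cluster and is named here after its values were seen, had 320 FPKM in short and 32.9 FPKM in long RNA and was far above at 55.4 points. The member with the least short RNA was therefore the one called.

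For that reason microRNA rows were also described by fragments. Estimates could be made for 102 of the 104 rows, by hairpin or locus length. The 76 far-above rows among them had a median of 208 fragments in short RNA and 4 in long RNA, and 54 of the 76 had at most 10 fragments in long RNA. The 26 rows not far above had a median of 2729 short fragments and 110 long fragments. Thus the calls fell on hairpins that were scarce in long RNA rather than on those with most short RNA. If a hairpin took the same share of both libraries, it would have 0.141 short fragments per long fragment. Some far-above calls rest on very few fragments: 10 of the 76 had fewer than 10 short fragments, Mirlet7a-1 and Mir367 among them. Mir3070b, Mir3089 and Mir463 had 1 short fragment each, and Mir3968 had 3 short and 15 long fragments. Ratios below carry 95% exact (Clopper-Pearson) intervals, which cover counting error only.

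Among the 46 microRNA rows with at least 10 long fragments, the ratio of short to long fragments ran from 0.0106 to 1390 with a median of 31.7. Mir148a stood first with 38920 short and 28 long fragments, a ratio of 1390 (95% interval 962 to 2092). Mir7-2 followed with 35961 and 55 fragments, a ratio of 654 (502 to 868). Mir148a and Mir7-2 did not overlap in these intervals. Mir381, Mir293, Mir379 and Mir30a came next with ratios of 453, 435, 423 and 406, and their intervals overlapped one another. The interval of Mir7-2 overlapped those of Mir381, Mir379 and Mir30a. Mir183 had a ratio of 310 (254 to 381) and Mir182 of the same cluster 212 (123 to 398), which cannot be ordered at this depth.

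Within the miR-290 cluster the ratio differed widely between hairpins that lie within a few kilobases. Mir293 had 173624 short and 399 long fragments, a ratio of 435 (394 to 481). Mir295 had 14237 and 135 fragments, a ratio of 105 (89.02 to 126). Mir291a had a ratio of 59.99 (52.5 to 68.8), from 13258 short and 221 long fragments. Mir294 had 7452 and 239 fragments and a ratio of 31.2 (27.4 to 35.6), which overlapped the interval of Mir292 at 28.3 (27.3 to 29.3). Mir292 had 88096 short and 3113 long fragments, the most long fragments of the cluster. Mir290a had a ratio of 7.05 (5.99 to 8.33) and Mir291b of 2.18 (1.29 to 3.80). From Mir293 down to Mir291b these ratios fell in an order in which only Mir294 and Mir292 had overlapping intervals among neighbours. Mir291a, Mir294 and Mir295 share the seed AAGUGCU on 1 arm and had ratios of 59.99, 31.2 and 105. The rows do not separate the arms, and a part of the seed in these ratios was not tested.

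Only a few annotated microRNAs had about as many or fewer short than long fragments among those 46 rows. Mir6236 had 9 short and 853 long fragments, a ratio of 0.0106 (0.00481 to 0.0201), and Mir5136 had 4 and 52 fragments, a ratio of 0.0769 (0.0202 to 0.209). Mir6236 was the 1 row of the 46 whose whole interval lay under the equal share of 0.141. Mir5099 was the most abundant row of the long library at 32010 FPKM and had 20717 short and 18603 long fragments, a ratio of 1.11 (1.09 to 1.14). Mir484, which is made without Drosha from a capped hairpin, had 44 and 58 fragments, a ratio of 0.759 (0.501 to 1.14). The long library was the deeper one, and the ratios of Mir5099 and Mir484 were 7.89 and 5.37 times the equal share. Mir320, also made without Drosha, had 359 and 128 fragments, a ratio of 2.80 (2.29 to 3.46). In Drosha-deficient short RNA Mir484 was listed at 0 and Mir320 had 36857 FPKM. Mir6236, Mir6240 and Mir5099 were the 3 microRNA rows with a difference below 0, at -9.37, -6.00 and -0.205 points. Mir6240 had 0 short and 8 long fragments.

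**Figure D2:**
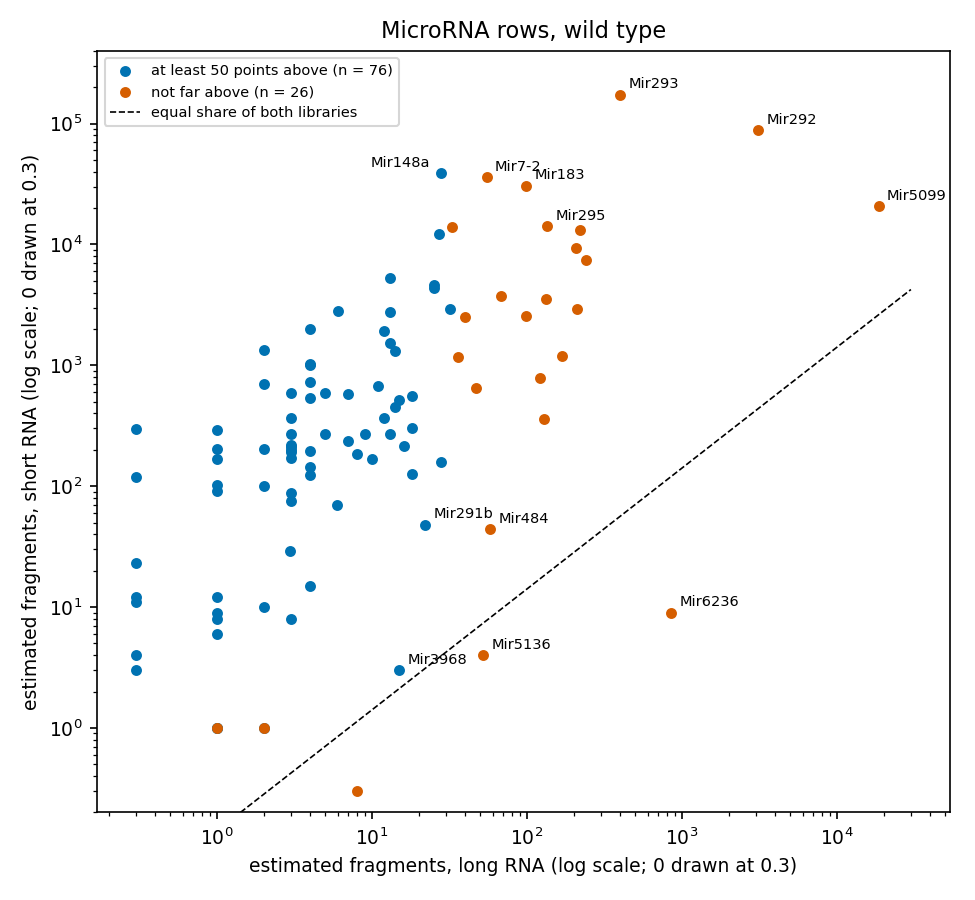
Estimated fragments of 102 microRNA rows in the wild-type short RNA (vertical axis) and long RNA (horizontal axis), both on log scales with 0 drawn at 0.3; the dashed line marks an equal share of both libraries. Blue rows were far above and orange rows were not; Mir6236, with 9 short and 853 long fragments, lies farthest under the line.

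Host transcripts of microRNAs were the next group. A microRNA gene without a row of its own lay inside 171 other rows. Of these, 47 (27.5%, against 7.78% of all rows) were far above and none far below. A host scarce in long RNA may have joined only through short RNA from within its locus. The shares and rho of hosts therefore describe only the rows that joined. Together, microRNA rows and such hosts made up 125 of the 190 far-above rows (65.8%). With ranks among all OK rows, 30 microRNA rows and 14 such hosts were among the 50 far above. The 47 hosts had 6.43 to 23522 FPKM in short RNA with a median of 64.6, and 0.273 to 30.2 FPKM in long RNA with a median of 6.25. Over the 171 rows the ranks of short and long RNA had a rho of -0.0277. The 1974 rows outside every small RNA group used here had a rho of 0.668. Some of those rows are small RNAs themselves, such as Rny1 and Rn7sk. Others may hold a microRNA gene that has its own row. No source used here says if counting was stranded, and reads of the hairpin and of the host cannot be told apart.

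Among protein-coding hosts, Clcn5, which codes for a chloride channel of endosomes, had 10334 FPKM in short and 5.30 FPKM in long RNA, a difference of 92.4 points. Its locus holds Mir188, Mir362, Mir500, Mir501 and Mir532. Sfmbt2, a Polycomb group gene whose intron holds a large cluster of repeated microRNAs, had 23522 and 6.25 FPKM. Xkr6, around Mir598, had 249 and 1.09 FPKM. Vmp1, a gene of autophagosome formation next to Mir21a, had 12979 FPKM in short and 20.5 FPKM in long RNA. R3hdm1 held Mir128-1 and had 3344 and 7.97 FPKM, and Chm, a Rab escort protein gene, held Mir361 and had 2706 and 9.22 FPKM. Each of these 6 rows lay in the lower ranks of long RNA and had a short percentile of at least 90. In wild-type mRNA, however, Vmp1 had 415 FPKM and a percentile of 95.0 among the joined rows, and Sfmbt2 had 80.4 FPKM and 58.2. Clcn5, Xkr6, R3hdm1 and Chm had mRNA percentiles of 8.17, 6.32, 34.6 and 11.0. Of 20 rows on a list of presumed protein-coding hosts, 9 (45%, against 7.78% of all rows) were far above and none far below. The list median was 47.6 points. Zranb2 (5.30 and 54.4 FPKM), around Mir186, was a host that was not displaced, with a difference of -7.6 points. Ddx3x, on the same list, holds no microRNA gene in RefSeq, and it had 26.6 and 163 FPKM (-3.8 points).

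Of 4 long noncoding transcripts on the list that carry microRNAs, 3 were far above (75%, against 7.78% of all rows). Mir17hg, from which the hairpins of the miR-17 to 92 cluster are cut, had 3739 FPKM in short and 25.6 FPKM in long RNA, and Mirg, in the Dlk1-Dio3 region, had 1541 and 9.45 FPKM. Ftx, a regulator of the X-inactivation centre, had 8.13 and 1.13 FPKM. Meg3, of the Dlk1-Dio3 region too, had 4.11 FPKM in short and 48.3 FPKM in long RNA, a difference of -17.7 points. Over all 44 rows of the long noncoding class, 18 (40.9%, against 7.78% of all rows) were far above and none far below. Dgcr8, the Drosha partner whose own transcript folds into hairpins that Drosha cuts, had 6.47 FPKM in short and 11.9 FPKM in long RNA and stood just outside the threshold at 48.5 points.

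Rows with a snoRNA, small nuclear RNA or other structural RNA gene (small cytoplasmic, Y or ribosomal RNA) inside are called the snoRNA group here. Of its 180 rows, 21 were far above (11.7%, against 7.78% of all rows) and 1 far below. Rpl21, a ribosomal protein gene, had 992 FPKM in short and 27.5 FPKM in long RNA, and Rbmx, around Snord61, had 188 and 9.90 FPKM. Ccar1, around Snord98, had 313 and 20.8 FPKM. Of 75 cytosolic ribosomal protein genes, 5 (6.67%, near the share of all rows) were far above and 1 far below, with a list median of -5.81 points. Besides Rpl21 they included Rps3a1 (24.6 and 22.5 FPKM, around Snord73a and Snord73b), Rps13 (64.9 and 28.8 FPKM, around Snord14a) and Rps27a (9.68 and 20.6 FPKM, with no small RNA gene inside). The difference of Rps27a turned to -7.06 points when ranked among all OK rows. Snord-holding rows could also rank high in both libraries. Hspa8, a chaperone gene around Snord14c to Snord14e, had 14021 FPKM in short and 658 FPKM in long RNA and differed by 0.1 points. Gas5, a noncoding host of many snoRNAs, had 48494 and 7419 FPKM and differed by -0.5 points. Of 25 listed snoRNA hosts, 1 was far above and 1 far below (4% each, against 7.78% and 1.35% of all rows). Their median was 0.123 points.

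A tRNA gene lay inside 14 rows, 6 of which (42.9%, against 7.78% of all rows) were far above. Gm26689, the row with most short RNA among them, had 802 FPKM in short and 14.9 FPKM in long RNA. Over protein-coding genes as a whole, 71 of 1890 (3.76%) were far above and 25 (1.32%) far below, against 7.78% and 1.35% of all rows. Their median difference was -7.94 points. Of the 71, a small RNA gene lay inside 46 (64.8%), compared with 285 of all 1890 (15.1%). MicroRNA genes with a row of their own were not counted here. Rows scarce in long RNA may have joined through such a small RNA, so these shares describe only the joined rows. The other 25 held none in RefSeq. Celf2, an RNA-binding protein gene, led them with 85.8 FPKM in short and 2.65 FPKM in long RNA. Ralgapb, a subunit gene of a Ral GTPase activator, had 5116 and 16.9 FPKM, and Arpc1b, of the actin-nucleating Arp2/3 complex, had 183 and 16.97 FPKM. Col1a1, a collagen gene on the fibroblast marker list, had 9.45 and 11.3 FPKM and a difference of 61.6 points.

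Structural RNAs of the cell ranked high in both libraries. These are the stable noncoding parts of the signal recognition particle, RNase P, vaults, Ro particles and the 7SK complex that restrains transcription elongation. None of 7 rows was called, with a median of -1.51 points. Rny1, a Y RNA, had 121237 FPKM in short and 10521 FPKM in long RNA. Rn7sk had 8450 and 7811 FPKM. Gm22405, at the locus of the 7SL RNA and not one of these 7 rows, had 6372 and 22263 FPKM. Rpph1, the RNA of RNase P, had 726 FPKM in short and 2520 FPKM in long RNA, and Terc, the telomerase RNA, had 78.2 and 96.2 FPKM. In percentile terms Rpph1 was lowest of the 7 at -4.5 points and Terc highest at 11.1 points. These small differences do not compare the fractions, whose tables were scaled apart.

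**Figure D3:**
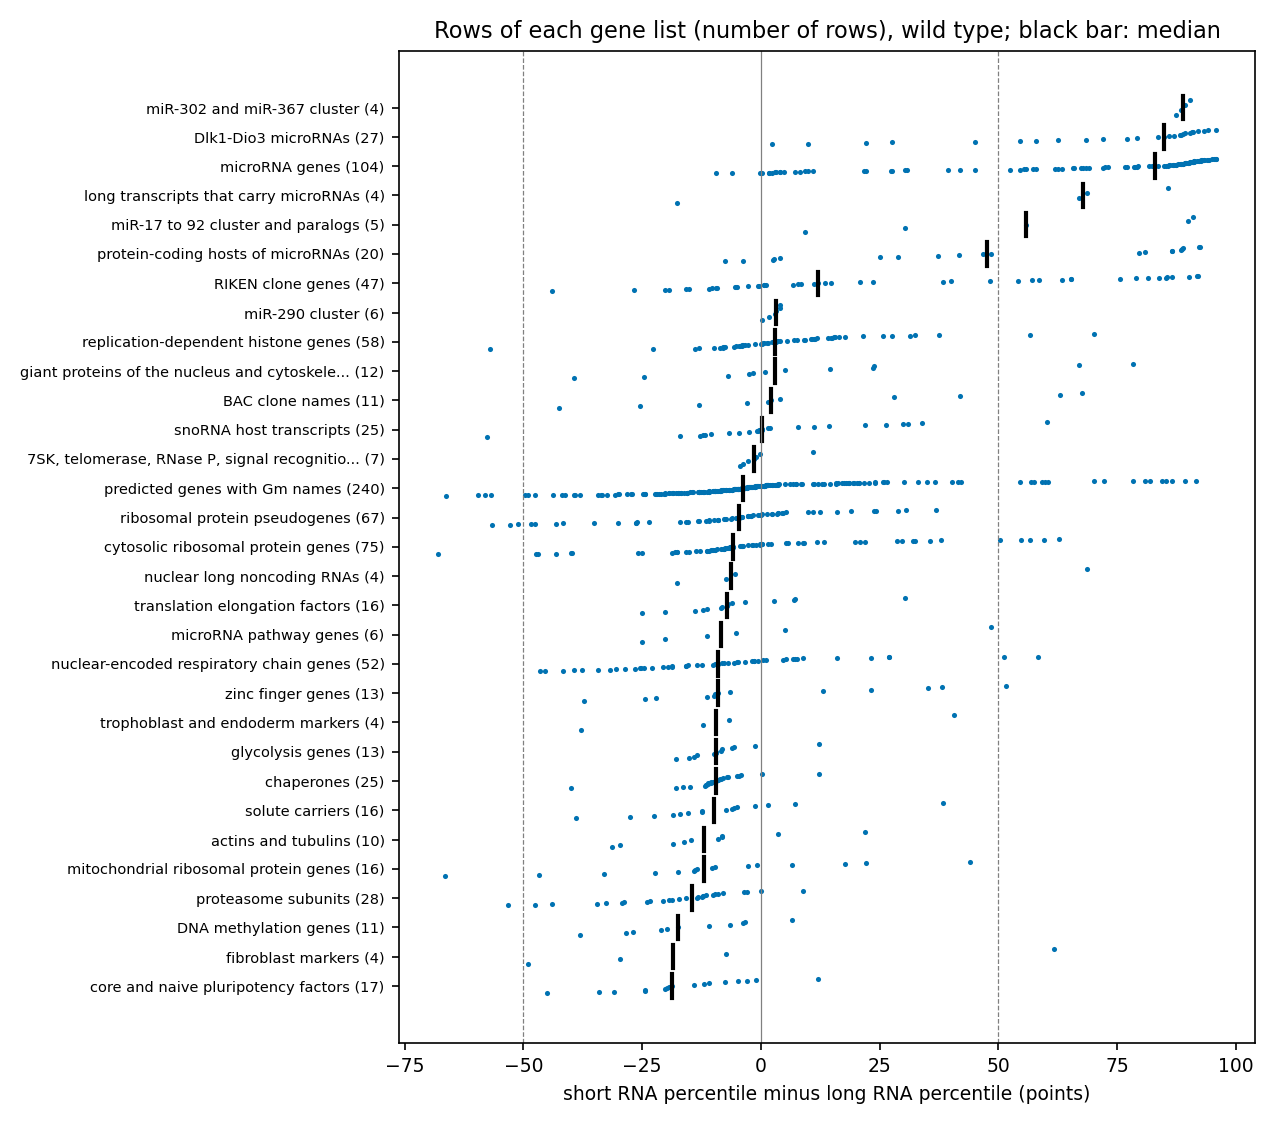
Short RNA percentile minus long RNA percentile of every row in each gene list with at least 4 rows; the number of rows is in brackets, the black bar is the list's median and the dashed lines mark 50 points either way. Most lists of microRNAs and of their carriers lie at the top, with the miR-290 cluster lower at a median of 3.09 points, and most lists of protein-coding genes have medians between -20 and 5 points.

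Protein-coding genes with no small RNA gene inside in RefSeq mostly ranked lower in short than in long RNA. Of 1605 such rows, 1121 had a difference below 0, with a median of -9.50 points, and 25 were far above and 24 far below. Taf1d, a listed host of snoRNAs, was among the 24, so this split can miss hosts. Among the lists with at least 5 rows, the core and naive pluripotency factors had the lowest median of the raw difference. It was -18.7 points over 17 rows, none of them called. Lefty1, a Nodal antagonist, had 3.45 FPKM in short and 67.5 FPKM in long RNA (-45.1 points), and Fgf4 had 1.83 and 36.4 FPKM (-34.2 points). Zscan10 was highest at 11.9 points with 3.56 and 13.0 FPKM. The DNA methylation genes followed with a median of -17.4 points over 11 rows. Pcna, the replication clamp, had 3.01 and 50.8 FPKM (-38.2 points), while Uhrf1, which brings Dnmt1 to hemimethylated DNA, had 8.99 and 64.5 FPKM (6.6 points). Proteasome subunits had a median of -14.6 points over 28 rows with 1 far below, Psmc3 (3.93 and 128 FPKM). Mitochondrial ribosomal protein genes had a median of -11.9 points over 16 rows, with Mrpl15 (2.78 and 109 FPKM) far below. The order of lists changed for residuals from a line of short on long percentile. There the pluripotency factors had a median of -6.98 points, DNA methylation genes -12.8 and mitochondrial ribosomal protein genes -13.0 points. Replication-dependent histones had a median of 3.05 points over 58 rows. Among them 2 (3.45%, against 7.78% of all rows) were far above, Hist2h3c2 (9.20 and 2.499 FPKM) and Hist4h4 (12.7 and 19.8 FPKM). Hist1h2af was far below (1.96 and 65.05 FPKM). Histone copies are near identical in sequence, so how reads were shared among them is uncertain. Of 26 lists with at least 5 rows, 10 had a median above 0.

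The 33 far-below rows were 25 protein-coding genes, 6 pseudogenes and 2 without a RefSeq class. They had 0.925 to 4.09 FPKM in short RNA and 54.9 to 240 FPKM in long RNA. March7, a ubiquitin ligase gene, had the lowest difference, -68.1 points, with 2.95 FPKM in short and 124 FPKM in long RNA. Rplp1, a protein of the ribosomal stalk, had 3.28 and 144 FPKM, and Csrp2, a LIM-domain protein gene, had 0.925 and 67.0 FPKM. Lgals1, a secreted galectin, had 1.89 and 75.9 FPKM. Spp1, the secreted osteopontin, had 3.13 FPKM in short RNA and 91.3 FPKM in long RNA. All 33 lie in the lower short ranks, where 1 fragment on 1 kb already makes 0.378 FPKM. Pseudogenes share sequence with their parent genes, so their values are uncertain.

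The Drosha-deficient pair of libraries gave the same comparison over the same rows. There rho was 0.538, and 140 rows (5.73%) were far above and 41 (1.68%) far below. Of the 190 rows far above in wild type, 86 (45.3%) were far above again, which is 61.4% of the 140. The share differed by the small RNA gene a row held. Of the 21 rows of the snoRNA group, 16 were far above in both genotypes, as were 3 of 6 with a tRNA gene. Of the 38 rows outside every small RNA group, 21 were far above in both. Of 47 hosts of microRNAs 10 were far above in both, and of 78 microRNA rows 36. No test of the difference between these shares was made, since rows of 1 library are not replicates.

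The 78 microRNA rows split without an intermediate. In the Drosha-deficient pair 36 differed by at least 50 points, 42 by less than 20 points in either direction and none in between. In Drosha-deficient short RNA 41 of the 78 were listed at 0. Mir7b kept a difference of 95.5 points with 355 FPKM in short and 0.822 FPKM in long RNA of Drosha-deficient cells. Mir30a kept 81.7 points with 5568 and 14.9 FPKM. Mir18b was listed at 0 in short RNA there and had 3.20 FPKM in long RNA. Rank is a coarse guide at this point, since 1 fragment already lifts a hairpin past most rows, and a microRNA can lose most of its short RNA and stay far above. Mir148a had 190794 FPKM in wild-type and 95.5 FPKM in Drosha-deficient short RNA and differed by 67.5 and 91.7 points.

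The 47 hosts had a median of 64.6 FPKM in wild-type and 1.46 FPKM in Drosha-deficient short RNA, with long RNA medians of 6.25 and 5.99 FPKM. Vmp1 went from 12979 to 30.1 FPKM in short RNA and stood at 20.5 and 18.1 FPKM in long RNA. Xkr6 went from 249 to 0.0411 FPKM in short RNA, and Clcn5 from 10334 to 12.2 FPKM. The 21 rows of the snoRNA group had short RNA medians of 30.6 and 19.5 FPKM and long RNA medians of 15.4 and 14.7 FPKM. Rpl21 had 992 and 541 FPKM in short RNA and 27.5 FPKM in long RNA of both genotypes. Rbmx had 188 and 227 FPKM in short RNA and 9.90 and 12.7 FPKM in long RNA. Ralgapb, with no small RNA gene inside, went from 5116 to 245 FPKM in short RNA. Col1a1 was listed at 0 in Drosha-deficient short RNA and had 0.111 FPKM in long RNA. In bulk RNA, fewer cells of a type and less RNA per cell cannot be told apart.

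Of the 33 far-below rows, 1 was far below again, Taf1d, with -57.7 and -52.6 points. Taf1d is on the list of snoRNA hosts, but RefSeq gave no small RNA gene inside its locus. It had 2.63 FPKM in short and 76.0 FPKM in long RNA of wild type, and 3.65 and 95.1 FPKM in Drosha-deficient cells. In 28 of the 33 the difference was below 0 there too, over a range of -52.6 to 14.8 points. All 33 had more FPKM in Drosha-deficient than in wild-type short RNA, against 1235 of all 2443 rows (50.6%). The authors' OK status is given once for both genotypes, so a row low in wild-type short RNA may have passed through the Drosha-deficient library, and this share was not used as a result.

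**Figure D4:**
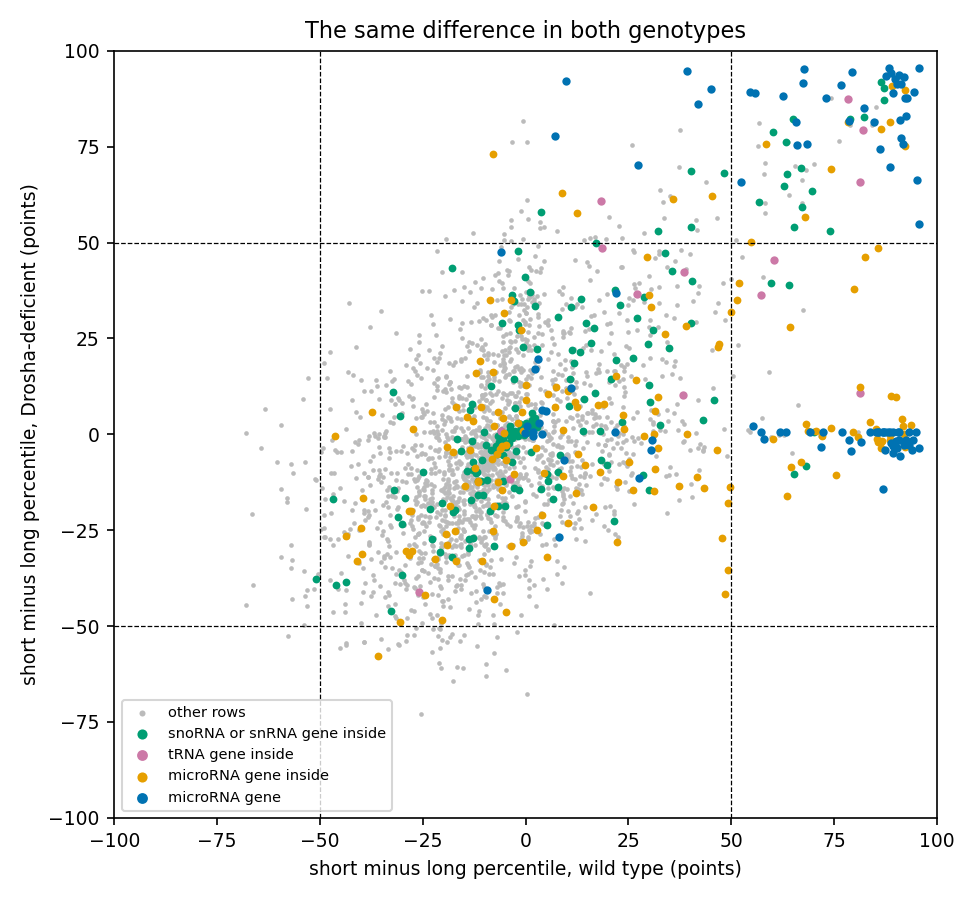
Short minus long percentile of each row in wild type (horizontal axis) and in Drosha-deficient cells (vertical axis), with dashed lines at 50 points either way; colours show the small RNA genes a row is or holds. Of the 78 microRNA rows at the right, 36 lie above the upper dashed line and 42 within 20 points of 0.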

How the data were processed

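The analysis used 1 short and 1 long RNA library of wild-type ES cells, with the matching Drosha-deficient pair as a repeat and wild-type mRNA as an alternative. The tools named by the submitters' processing notes are Cuffdiff, Cufflinks (version 2.1.1), TopHat2 (version 2.0.10) and bcl2fastq (version 1.8.4), on mm10/GRCm38. The authors deposited gene-level FPKM values, 1 per genotype and table; their annotation, scaling and use of strand are given in no source used here. Other samples were not analysed here.

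Tables were joined on the row identifier. Percentiles were taken among joined rows with ties averaged, so no pseudocount was needed. Of 2376 single names, 2133 (89.8%) matched RefSeq (GRCm38), which gave gene classes and the small RNA genes inside each locus. Fragments came from the steps of low FPKM values. The fit of the library size was tested only on values simulated with the same formula. Named rows were the 12 highest and 12 lowest differences, overall and among protein-coding genes, the 10 highest microRNAs, microRNAs below 0, 2 per side of each of 37 lists and the 5 highest values of each library. Members and lists were chosen with earlier results of these data known. No small nucleolar or 5S RNA gene joined, and the spliceosomal list matched only a protein gene. Python 3.11.15, pandas 2.3.3, numpy 2.4.6 and scipy 1.17.1 were used. Alternatives covered the rows that enter, low values, the ranking, short loci, the threshold and the long library. The values of 1 ribosomal protein gene are not reported here.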

Additional observations from a re-analysis of the deposited data

How the results depend on the processing

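No paired analysis was possible because each genotype has 1 library per fraction and the labels give no replicate numbers; for the same reason no library could be left out. The count of 190 far-above rows became 50 with ranks among all OK rows, 97 among protein-coding rows and 106 at 75 points, and ran from 132 to 246 under the others. The count of 33 far-below rows became 851 with ranks among all OK rows, 67 with mRNA in place of long RNA, 0 at 75 points and 3 as residuals from a line. Spearman's rho of 0.468 became 0.821 over 14171 rows not failed and above 0, and 0.354 against mRNA. The 86 rows far above in both genotypes became 43 among rows not failed, 9 with ranks among all OK rows, 41 among protein-coding rows, 137 with mRNA and 41 at 75 points. The 1 row far below in both became 2 among rows not failed, 396 with ranks among all OK rows, 2 without loci under 200 bases, 6 with mRNA, 0 at 75 points and 0 as residuals. The 10 list medians above 0 became 5 with ranks among all OK rows, 5 among protein-coding rows and 17 as residuals. With ranks among all OK rows, Hist4h4 turned to -1.08, Med23 to -7.65, Ndufc1 to -6.65, Rbm26 to -6.51, Rps27a to -7.06, Uqcrq to -0.0869 and Zfp518a to -5.07 points, and Uqcrq turned to -15.2 points with mRNA. Ranks among all OK rows shift by construction, since the joined rows then have a median long percentile of 91.0; the cause of the other changes was not tested. Depth limits the low short RNA values most, since 1 fragment on 1 kb is 0.378 FPKM there.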

Other observations

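The RIKEN clone genes, which are transcripts first found as complementary DNA clones, had 16 of 47 rows (34.04%, against 7.78% of all rows) far above and none far below, with a median difference of 12.03 points. E130102H24Rik, around Mir101a, had 622 FPKM in short and 2.22 FPKM in long RNA, and 2010111I01Rik, around Mir23b, Mir24-1 and Mir27b, had 160 and 0.829 FPKM. Of 240 predicted genes with Gm names, 16 (6.67%) were far above and 4 (1.67%) far below, close to the shares of all rows (7.78% and 1.35%). Gm20732, around Mir30d, had 2312 FPKM in short and 6.77 FPKM in long RNA, and Gm15884, around Mir141 and Mir200c, had 103 and 0.491 FPKM.

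Tmem38b, a gene for a cation channel of intracellular membranes, had 5970 FPKM in short and 9.41 FPKM in long RNA in wild type, and 240 and 6.14 FPKM in Drosha-deficient cells. It was counted in the snoRNA group. Of 12 genes for giant proteins of the nucleus and cytoskeleton, 2 were far above (16.7%, against 7.78% of all rows). These were Ep400 (44.7 and 10.1 FPKM) and Trrap (16.9 and 14.9 FPKM), both parts of chromatin-acetylating complexes. The locus of Ep400 holds Mir7026, a snoRNA gene and other small RNA genes, and that of Trrap holds a snoRNA gene. Among 52 nuclear-encoded respiratory chain genes, Uqcrq (11.9 and 18.02 FPKM) and Ndufc1 (7.22 and 13.4 FPKM) were far above, with a list median of -9.05 points. Their share of the list was 3.85%, against 7.78% of all rows.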
